A study of Mus musculus with 10 samples.

Results

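The 10 genes described here encode the secreted signals Nodal and activin, their receptors and the secreted proteins that block them: the ligands Nodal, Inhba and Inhbb, the receptors Acvr1b, Acvr2a and Acvr2b, and the antagonists Lefty1, Lefty2, Fst and Fstl3. They are rows listed by name in a table of 49568 genes from 10 mouse pancreatic cancer cell lines. The list was chosen by name with the measured normalized counts of these lines known, Lefty1 lower and Fst higher in KPCAf/f. The genotype values of these 2 genes are therefore given as a description. Fits, calls and intervals that include them are shown, but they are not read as a test. All 10 genes were found in the table, 8 had at least 1 read in some line and 7 had enough reads to be tested.

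Activins are dimers of inhibin beta chains, and Nodal is a related ligand of the TGF-beta family. Both bind a type II receptor (Acvr2a or Acvr2b) that recruits the type I receptor Acvr1b, which phosphorylates Smad2 and Smad3. Nodal also needs a co-receptor of the Cripto family. Follistatin (Fst) and its relative Fstl3 trap activins, whereas the Lefty proteins block Nodal, and Lefty genes are themselves Nodal targets in the mouse embryo. In the embryonic pancreas, activin and Nodal signalling is known for its part in patterning the foregut endoderm.

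The 5 lines of each genotype were sequenced, with 1 messenger RNA library per line. Those labelled KPCAf/f carry the names A3992, A2441, A1925, A1809 and A1693, and those labelled KPC the names A2032, A2031, A1625, A1620 and A1081. Both groups carry the name KPC, by which the field knows an engineered mouse model of pancreatic cancer with a pancreatic Cre driver. The series title names ARID1A, and f/f is read here as floxed Arid1a alleles. The labels used here spell out no allele, driver, age or passage, and do not say whether each line came from its own mouse, so that p-values measure the spread between these lines. All lines were grown in the same serum-containing medium, and none was labelled as treated.

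Reads assigned to genes ranged from 15124888 to 20419830 per line. Arid1a had 1253 to 1785 normalized counts in KPCAf/f lines and 820 to 3109 in KPC lines, and this gene-level count includes exons outside a deleted part, so it does not check recombination. Library A1620 stood apart, with a slope of -0.65 (log2 value, set against the average line) for each doubling in length of the transcript, against slopes of -0.02 to 0.15 in the other lines. KPCAf/f line A1693 stood apart in some epithelial markers, with 10.8 normalized counts of the epithelial cadherin Cdh1 and 2.70 of the pancreatic factor Pdx1. KPC lines had at least 8010 of Cdh1 and 594 of Pdx1. Not all markers listed as epithelial were low there, since Sox9 was at 945 in A1693 and at most 816 in KPC lines. Epcam was at 15.3 in A1693, but also at 37.9 in A1925 and 34.4 in KPC line A1620. The summed level of 8 epithelial markers was 6866 to 133870 in KPCAf/f lines and 170415 to 368087 in KPC lines. Limma called 0 of these 8 in either direction, where 1.75% of all tested genes were called. At an unadjusted p under 0.05, 4 of the 8 were lower, as were 6.26% of all tested genes. The summed level of 8 fibroblast markers was 14624 to 88351 in KPCAf/f lines and 62.9 to 173 in KPC lines. Lum was at 0 in KPC lines and at 126 in A1693, but at most 7.05 in the other KPCAf/f lines. Thy1 was at 24.3 in A1693 and 97.8 in A3992. It was at 2.53 to 3.37 in A1809, A1925 and A2441, below KPC line A1081 at 6.63. Dcn was at 2.46 in A1809 and at least 87.7 in the other KPCAf/f lines. Of these 8 fibroblast markers, all 5 that were tested were called higher in KPCAf/f, as were 1.36% of all tested genes. Among the 5, Pdgfrb, Col1a2 and Col3a1 had at most 5.59 normalized counts in any KPC line. They entered the test through the group where they were high. Summed markers of leukocytes reached at most 293 in KPCAf/f and 81.4 in KPC lines, and those of endothelium at most 664 and 438. Of the highest leukocyte sums, Cd68 gave 292.6 in A1693 and 70.1 in A2032, while Ptprc was at most 11.3 in any line. Of the highest endothelial sums, Cdh5 gave 644 in A2441 and 415 in A1081, while Pecam1 was at most 6.75 in any line. Together 4 Y-linked genes had 0 to 3.37 normalized counts in KPCAf/f lines and 1521 to 3727 in KPC lines, so the comparison of genotypes is also one of lines without and with Y-linked expression. The part of the line composition, the Y-linked difference and library A1620 in the results below was not tested, except where values without a line are given.

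Inhba encodes the beta A chain of activin A and was the ligand gene with the most reads. It had 24.3 normalized counts in A1693, 579 in A1809, 505 in A1925, 859 in A2441 and 178 in A3992, all KPCAf/f, against 20.8 in A1081, 21.2 in A1620, 77.3 in A1625, 45.8 in A2031 and 19.6 in A2032, all KPC. Normalized counts are reads divided by the library's size factor, so that 1 read is worth about 1. A1693 lay within the KPC range, and the other 4 KPCAf/f lines stood above every KPC line. In bulk libraries, fewer cells that make a transcript and less transcript per cell cannot be told apart.

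The Inhba mean was 429 ± 332 normalized counts in KPCAf/f and 36.9 ± 25.1 in KPC (SD, n = 5 each), an 11.6-fold ratio of means. On the log2(normalized count + 1) scale the difference, KPCAf/f minus KPC, was 2.99 (SE 0.88, 95% interval 1.05 to 4.92), and it did not pass over all genes (limma adjusted p = 0.142, unadjusted p = 0.00599). A difference on this scale understates the change of genes with few reads. The call turned on line A1693, which of the KPCAf/f lines had the lowest epithelial and the highest fibroblast marker sum. Of that fibroblast sum of 88351, Col1a2 alone gave 71336.5. Among KPCAf/f lines A1693 was highest for Col3a1 (11775) and lowest for Col1a1 (3259). Without A1693 the Inhba mean of KPCAf/f was 530 ± 280 (n = 4), and Inhba passed with a log2 difference of 3.82 (limma adjusted p = 0.00760). With other tools on all 10 lines, DESeq2 called it (adjusted p = 0.000101), while edgeR (0.0665) and limma-voom (0.310) did not. Over 21 alternative settings the adjusted p ran from 0.000101 to 0.310 and the difference was positive in each.

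Inhbb encodes the beta B chain, which forms activin B. It had 2.70 normalized counts in A1693, 40.1 in A1809, 42.2 in A1925, 34.8 in A2441 and 23.8 in A3992, against 0.947 in KPC line A1081 and 0 in the other 4 KPC lines. The 2 genotypes did not overlap, and A1693 again gave the lowest KPCAf/f value. In reads this was 160 over the KPCAf/f lines and 1 over the KPC lines, or 136 times as many per unit of depth (95% interval from counting error only, 24.0 to 5389). Without A1693 KPCAf/f averaged 35.2 ± 8.22 normalized counts (n = 4). Inhbb missed the minimum of 10 normalized counts in at least 5 lines, so it was not tested with the other genes. Without any minimum the log2 difference was 4.30 (SE 0.71) and passed (limma adjusted p = 0.0108).

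Nodal, the third ligand, had 0 reads in all 10 lines. Over the 183863541 reads of the series, a count of 0 allows up to 3 reads, or 0.0163 RPM (reads scaled to a fixed library total), again for counting error only. In a single line the limit is 0.147 to 0.198 RPM. At this depth Nodal transcripts were not detectable in lines of either genotype.

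**Figure D1:**
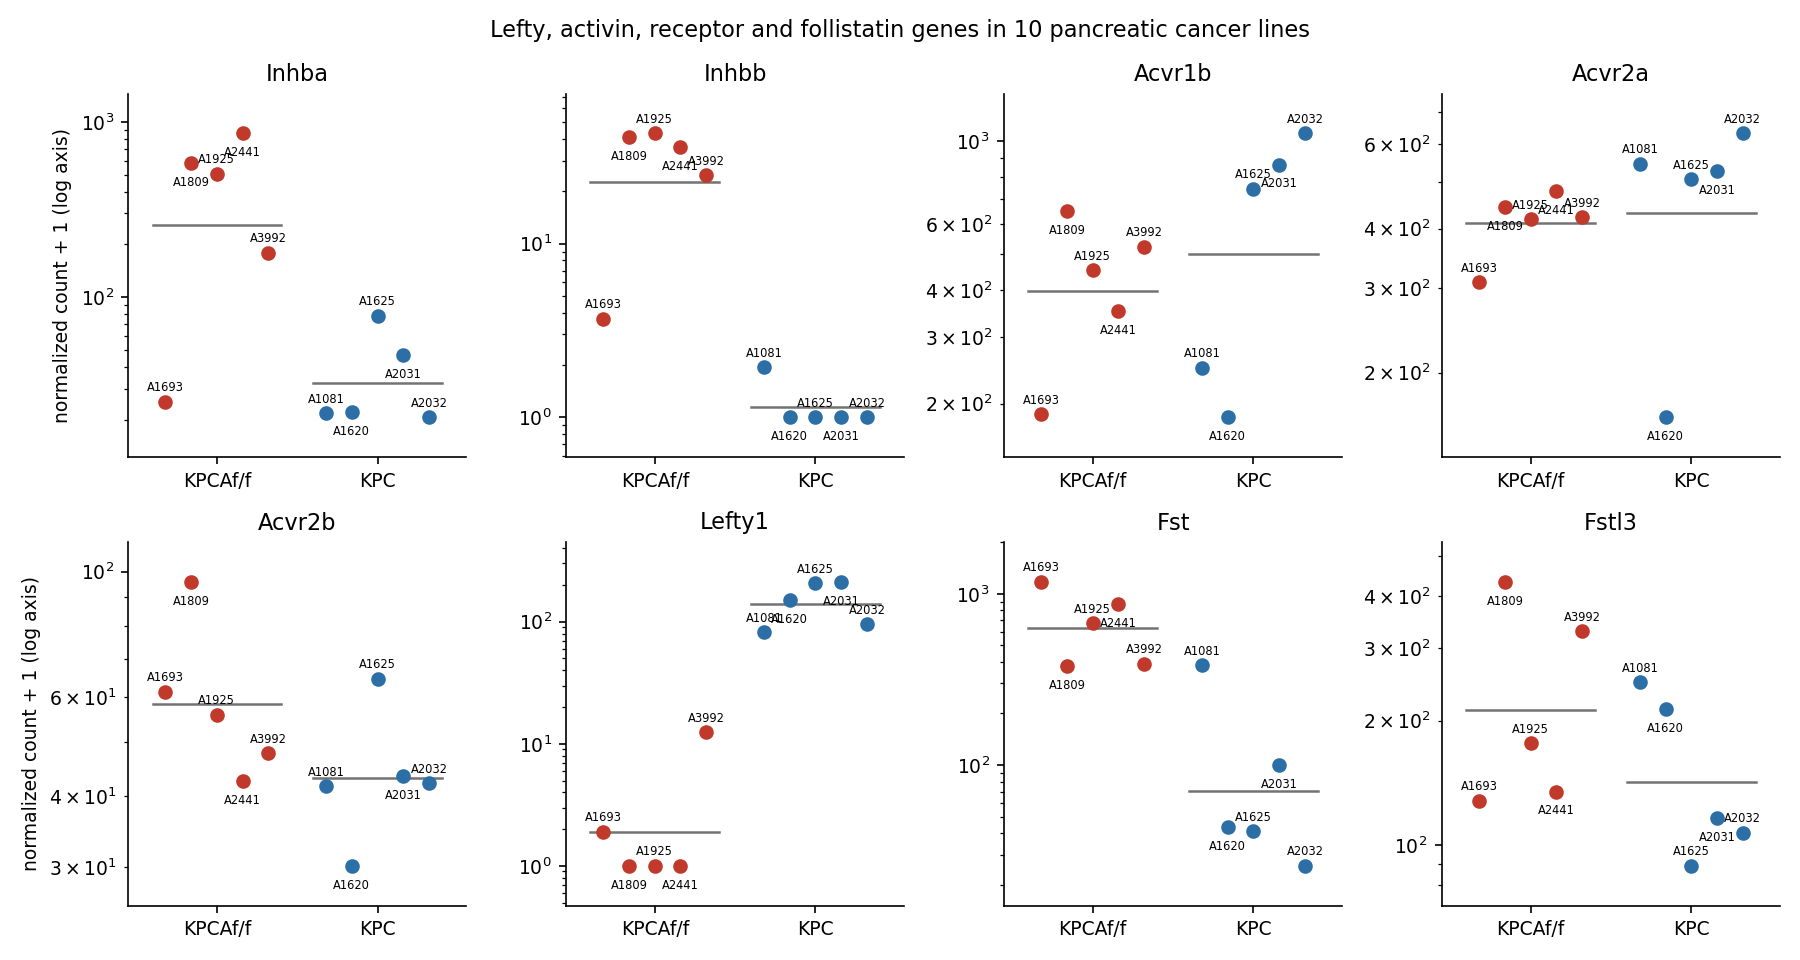
Normalized count + 1 (log axis, its own range in each panel) of the 8 genes with reads in each KPCAf/f line (red, left) and each KPC line (blue, right), with grey lines at the mean of the log values over 5 lines. Lefty1 points of KPCAf/f lie below all KPC points and Inhbb points above them, while A1693 lies among the KPC lines for Inhba and A1081 among the KPCAf/f lines for Fst.

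The promoters of the 2 activin chain genes are shown because both genes had their lowest KPCAf/f value in A1693. Both also had more reads in each of the other 4 KPCAf/f lines than in any KPC line. Each window runs from 250 bases before to 50 bases after the RefSeq gene start (GRCm38.p6), 5′ to 3′ on the gene's strand, at chr13:16011601-16011900 (plus strand) for Inhba and chr1:119422199-119422498 (minus strand) for Inhbb. Capitals mark CpG dinucleotides.
Inhba: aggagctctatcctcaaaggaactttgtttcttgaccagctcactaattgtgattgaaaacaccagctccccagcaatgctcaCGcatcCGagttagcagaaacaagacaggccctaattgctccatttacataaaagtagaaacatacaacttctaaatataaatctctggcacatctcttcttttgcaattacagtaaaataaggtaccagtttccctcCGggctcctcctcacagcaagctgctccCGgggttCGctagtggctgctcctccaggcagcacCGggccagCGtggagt
Inhbb: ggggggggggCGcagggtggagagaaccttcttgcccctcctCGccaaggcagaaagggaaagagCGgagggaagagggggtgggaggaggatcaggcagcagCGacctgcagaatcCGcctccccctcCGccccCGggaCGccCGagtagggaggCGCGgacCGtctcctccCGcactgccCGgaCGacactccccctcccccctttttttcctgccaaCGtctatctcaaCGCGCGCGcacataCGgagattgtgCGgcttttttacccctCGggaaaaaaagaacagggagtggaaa
The Inhba window held 7 CpG dinucleotides with 47.7% G and C, and the Inhbb window 23 with 64.3%. Their observed CpG counts were 0.426 and 0.741 of those their base composition gives, where the median of 32851 promoters was 0.384.

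The promoters of the 3 receptor genes held more, with 51 CpG dinucleotides for Acvr1b, 54 for Acvr2a and 27 for Acvr2b, and that of Fstl3 held 25. By CpG ratio Acvr1b and Acvr2a were above the 97th percentile of all promoters (97.7 and 98.8). Acvr2b and Fstl3 stood at 70.5 each by this ratio, below Inhbb at 74.2, and Nodal at 32.9. Promoter entries were matched for 7 of the 10 genes, all but Lefty1, Lefty2 and Fst. Motifs were searched on both strands, with overlaps between motifs allowed. The SMAD box CAGAC, present in 49.6% of all promoter windows, was found for Acvr2a, Acvr2b and Fstl3. The FOXH1 core AATNNACA (12.2% of windows), the AP-1 motif TGANTCA (7.81%) and the cyclic AMP element TGACGTCA (1.79%) were found in 0 of the 7. TATAAA (13.6%) was found for Inhba, starting 91 bases before the gene start, and for Fstl3. A match describes letters in the window and no more.

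None of the 3 receptor genes passed the limma test. Acvr1b, the type I receptor also called ALK4, had 186 normalized counts in A1693, 651 in A1809, 452 in A1925, 352 in A2441 and 522 in A3992, against 248 in A1081, 183 in A1620, 745 in A1625, 864 in A2031 and 1046 in A2032. All KPCAf/f values lay within the KPC range, but KPC lines A1625, A2031 and A2032 were above every KPCAf/f line. The lowest line of each genotype was one that stood apart, A1693 and A1620. Means were 432 ± 175 in KPCAf/f and 617 ± 383 in KPC (SD, n = 5 each), with a log2 difference of -0.32 (95% interval -1.49 to 0.85, limma adjusted p = 0.796). It was -0.68 without A1620 and -0.05 without A1693, with no call in either.

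Acvr2a, a type II receptor of activins, had 308 normalized counts in A1693, 444 in A1809, 418 in A1925, 479 in A2441 and 421 in A3992, against 545 in A1081, 160.3 in A1620, 506 in A1625, 527 in A2031 and 632 in A2032. All KPC lines but A1620 were above every KPCAf/f line. The mean was 414 ± 64.1 in KPCAf/f and 474 ± 182 in KPC (log2 difference -0.07, 95% interval -0.86 to 0.72, limma adjusted p = 0.939). Without A1620 KPC averaged 553 ± 55.3 (n = 4), which gave a log2 difference of -0.43 (limma adjusted p = 0.296). The longest annotated Acvr2a transcript has 5686 bases, and with a correction for transcript length the log2 difference was -0.35 (adjusted p = 0.515). The direction was not stable to the choice of lines, since leaving out A1081, A2031, A2032 or A1693 gave differences between 0.00 and 0.07.

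Acvr2b, the other type II receptor, was the lowest of the 3 receptor genes per length, at 3.23 ± 1.19 TPM in KPCAf/f and 2.02 ± 0.80 TPM in KPC (SD, n = 5 each). It had 60.3 normalized counts in A1693, 94.9 in A1809, 54.8 in A1925, 41.6 in A2441 and 46.7 in A3992, against 40.7 in A1081, 29.1 in A1620, 63.6 in A1625, 42.5 in A2031 and 41.2 in A2032. The ranges overlapped, with A1809 alone above all KPC lines. The log2 difference was 0.43 (95% interval -0.37 to 1.23, limma adjusted p = 0.593). Per length, in TPM (transcripts scaled to a fixed total per line) from the recovered reads, Acvr2a was above Acvr2b in every line, with ratios of 3.23 to 7.95 in KPCAf/f and up to 10.6 in KPC.

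**Figure D2:**
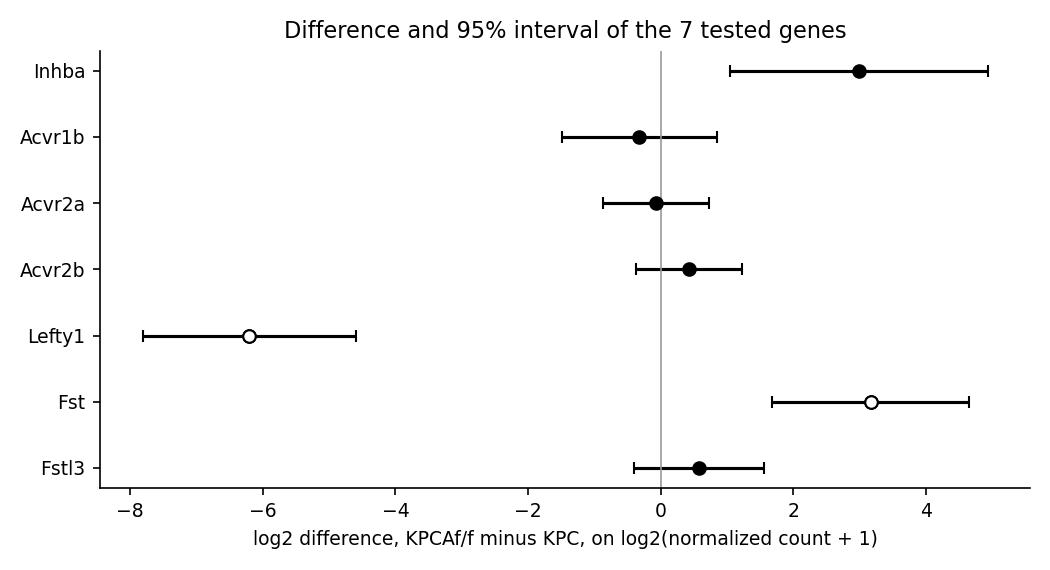
Log2 difference, KPCAf/f minus KPC, of the 7 tested genes with 95% limma intervals not adjusted for the number of genes (n = 5 lines each). Open circles mark Lefty1 and Fst, which were listed because of this difference, at -6.20 and 3.17, and the 3 receptor genes lie within 0.5 of 0.

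Lefty1 is a secreted TGF-beta family protein that blocks Nodal signalling. It had 0.900 normalized counts in A1693, 11.5 in A3992 and 0 in A1809, A1925 and A2441, against 81.4 in A1081, 149.7 in A1620, 205 in A1625, 211 in A2031 and 93.8 in A2032. The ranges did not overlap. The mean was 2.47 ± 5.04 in KPCAf/f and 148 ± 60.6 in KPC (SD, n = 5 each), and the fitted log2 difference was -6.20 (SE 0.73). Among KPCAf/f lines 13 of the 14 reads came from A3992. Over all lines the KPC level per line was 58.1 times the KPCAf/f level (95% counting interval 34.4 to 107), and without A3992, where 1 KPCAf/f read remains, 646 times (116 to 25572). The rule that chose the gene used this contrast, and these values support no further statement.

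Within KPC, the SD of Lefty1 on the log2 scale was 0.63, at the 56.4th percentile of the 13089 tested genes, whose median was 0.57. Per length, Lefty1 was at 15.0 ± 7.34 TPM in the KPC lines, above Inhba at 1.07 ± 0.81 TPM and near Acvr2a at 15.7 ± 7.08 TPM. In KPCAf/f lines it was at 0.292 ± 0.595 TPM.

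Lefty2, the paralog of Lefty1 on the same chromosome, had 0 reads in all 10 lines, with the same limits, 0.0163 RPM over all lines and 0.147 to 0.198 RPM in a single line. Lefty1 lies on chromosome 1 at 180935022 to 180938400 and Lefty2 at 180893108 to 180899103, both on the plus strand (GRCm38, GENCODE M21). On the same build Inhba spans 16011851 to 16031621 of chromosome 13, Inhbb 119415465 to 119422248 of chromosome 1 and Fst 114452290 to 114458951 of chromosome 13. Of the 1707 different stretches of 50 bases in annotated Lefty1 transcripts, 306 (17.9%) also occur in Lefty2 transcripts, and the longest identical run is 161 bases. How the authors treated reads that match both genes is not stated in the labels, and counts of such reads are uncertain.

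The gene nearest to Lefty1, looked up after the Lefty1 values were seen, was Tmem63a, an ion channel gene 3.94 kb away. Tmem63a was at 875 ± 238 normalized counts in KPCAf/f and 1767 ± 478 in KPC (SD, n = 5 each), with ranges that did not overlap and a log2 difference of -1.01 that did not pass (limma adjusted p = 0.0766). Of the 3 nearest protein-coding genes on each side of Lefty1, Fst, Inhba and Inhbb, 24 genes in all, limma called 0 of the 20 tested, and 3 had an unadjusted p under 0.05 (Tmem63a, Gli3 near Inhba and Clasp1 near Inhbb), where 14.6% of all tested genes had one.

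Fst encodes follistatin, which binds activin A almost irreversibly. It had 1175 normalized counts in A1693, 377 in A1809, 673 in A1925, 875 in A2441 and 389 in A3992, against 382 in A1081, 42.4 in A1620, 40.1 in A1625, 98.3 in A2031 and 24.7 in A2032. KPC line A1081 lay within the KPCAf/f range, and the other 4 KPC lines lay below it. The mean was 698 ± 338 in KPCAf/f and 118 ± 151 in KPC, or 51.4 ± 32.3 in KPC without A1081 (n = 4), and the fitted log2 difference was 3.17 (SE 0.68). This difference, too, was known when the gene was listed. In A1693, which had the least Inhba of the KPCAf/f lines, Fst was highest.

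Fstl3, the follistatin relative, had 127 normalized counts in A1693, 433 in A1809, 175 in A1925, 134 in A2441 and 329 in A3992, against 247 in A1081, 212 in A1620, 88.1 in A1625, 115 in A2031 and 106 in A2032. The ranges overlapped, and the 2 highest lines were the KPCAf/f lines A1809 and A3992. Means were 240 ± 135 in KPCAf/f and 154 ± 71.0 in KPC, with a log2 difference of 0.58 (95% interval -0.40 to 1.56, limma adjusted p = 0.564). Within KPCAf/f the order of Fstl3 was not that of Fst, since A1693 was highest for Fst and lowest for Fstl3.

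In total, 1 of the 7 tested members was called higher (Fst) and 1 lower (Lefty1) by limma, where 1.36% of all tested genes were called higher, 0.39% lower and 1.75% in either direction. Both calls were known beforehand and nothing is read from these counts. Among the 5 tested genes the list did not single out, 0 were called, Inhba had an unadjusted p under 0.05 in limma, and other tools called Inhba (DESeq2) or none (edgeR, limma-voom). Of the 7 tested members, Lefty1 alone had genotypes that did not overlap, with lower KPCAf/f values, as had 1.69% of tested genes, while 2.84% did not overlap with higher KPCAf/f values and 4.53% in either direction. The median log2 difference was 0.43 over the 7 tested members and -0.01 over all tested genes. A gene with few reads in 1 genotype entered the test only if the other genotype lifted it past the minimum, so these counts describe the 7 and not all 10.

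**Figure D3:**
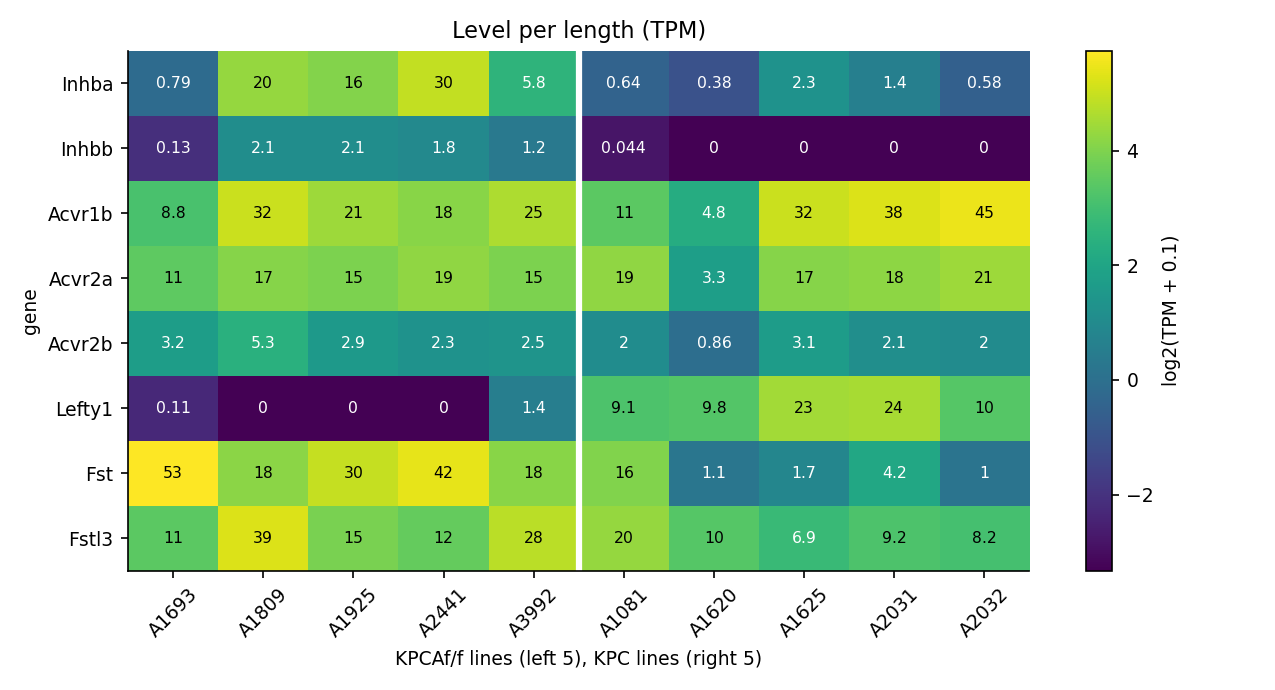
Level per length (TPM, printed in each cell, colour on a log2 scale) of the 8 genes with reads, in KPCAf/f lines (left 5 columns) and KPC lines (right 5 columns). Fst is at 17.6 to 53.3 TPM in KPCAf/f lines and 1.02 to 16.3 TPM in KPC lines, and Lefty1 is at or below 1.35 TPM in KPCAf/f lines and between 9.07 and 23.6 TPM in KPC lines.

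Set side by side per length, antagonist transcripts exceeded ligand transcripts in every line of both genotypes. Fst and Fstl3 together were at 53.1 ± 7.93 TPM in KPCAf/f and 15.7 ± 11.6 TPM in KPC (SD, n = 5 each). Inhba and Inhbb together were at 15.9 ± 12.1 TPM in KPCAf/f, from 0.924 in A1693 to 31.5 in A2441, and at 1.08 ± 0.80 TPM in KPC, from 0.384 to 2.33. The ratio of these sums was 69.4 in A1693, 2.59 in A1809, 2.45 in A1925, 1.72 in A2441 and 6.55 in A3992. Among KPC lines it was 53.0 in A1081, 28.9 in A1620, 3.70 in A1625, 9.55 in A2031 and 15.9 in A2032. Ratios were below 7 in 4 KPCAf/f lines and above 9 in 4 KPC lines, and the sets overlapped through A1693, A1625 and A3992. The 3 receptors together were at 39.6 ± 11.1 TPM in KPCAf/f and 43.9 ± 23.6 TPM in KPC, with A1620 lowest at 8.90. In A1620 values fell with transcript length (slope -0.65), which TPM does not correct, so its ratio and receptor sum are uncertain. The part of this library was not tested. The sums and ratios include genes listed for their difference and carry no test.

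**Figure D4:**
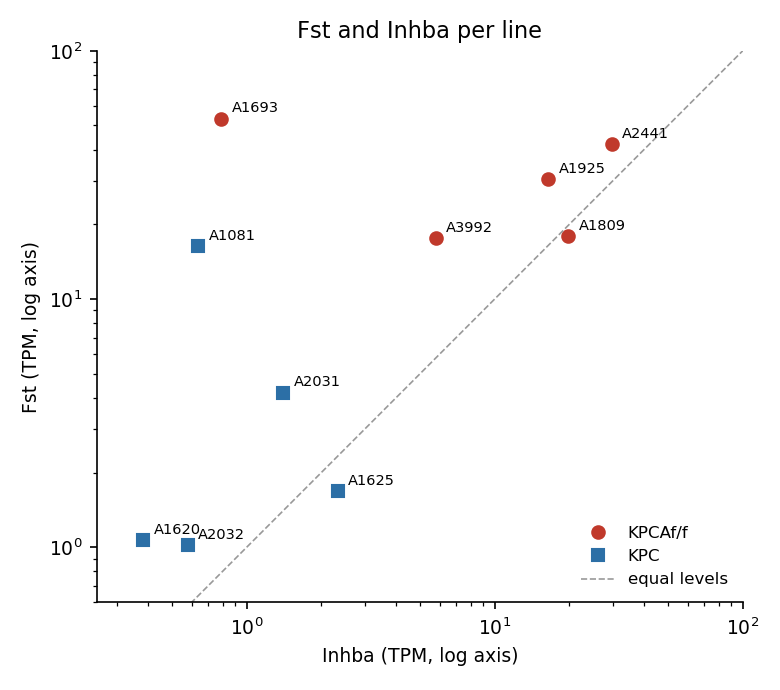
Fst against Inhba per length (TPM, log axes) in KPCAf/f lines (circles) and KPC lines (squares), 1 point per line, with a dashed line of equal levels. KPCAf/f line A1693 (53.3 TPM of Fst, 0.792 of Inhba) and KPC line A1081 (16.3 and 0.639) lie farthest above the line, and A1809 (17.9 and 19.8) and A1625 (1.68 and 2.33) lie just below it. Merged exons, used here, give Fst 4589 bases, but its longest transcript has 2921, while Inhba has 6390 by both. The side of the line on which A1809 and A1625 lie depends on this choice.

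Line to line, the members ranged from steady to very uneven. Acvr2a was among the steadier genes in KPCAf/f, with an SD of 0.24 on the log2 scale (17.9th percentile of tested genes), and Acvr2b was in KPC (SD 0.39, 27.5th percentile). Inhba was at the 92.3rd percentile in KPCAf/f (SD 2.05, and A1693 far below the others), and Fst at the 92.6th in KPC (SD 1.53, and A1081 far above the others). Lefty1 in KPCAf/f had an SD of 1.58, which rests on the reads of A3992.

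Genes whose pattern over the 10 lines was most like a member's were ranked by the root mean square difference of centred log2 values, which includes the genotype difference. For Lefty1 the 5 nearest of 11825 genes were Nr0b2 (1.32), which encodes the nuclear receptor SHP, Spats2l (1.39), the gastric mucin gene Muc5ac (1.43), the Y-linked demethylase gene Kdm5d (1.56) and Npw (1.66), where the median gene was at 3.33. Nr0b2 had 8.11 ± 17.6 normalized counts in KPCAf/f and 123 ± 118 in KPC, and Muc5ac had 21.4 ± 43.2 in KPCAf/f and 206 ± 116 in KPC. For Fst they were Fam131a (0.79), Peli3 (0.81), Rhoq (0.84), Cyp1b1 (0.85) and the AP-1 subunit gene Jun (0.86). Jun had 1198 ± 724 normalized counts in KPCAf/f and 285 ± 167 in KPC.

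For Inhba the nearest were Cpeb1 (0.94), the hyaluronan synthase gene Has2 (0.99), the coagulation factor gene F5 (0.996), Csdc2 (1.02) and Cercam (1.03). Has2 had 165 ± 118 normalized counts in KPCAf/f and 12.8 ± 11.2 in KPC. For Inhbb they were Mfap5 (0.95), the focal adhesion gene Tgfb1i1 (0.96), Sema7a (1.05), Inhba (1.07) and Ass1 (1.09). Inhba was thus the fourth of 11826 genes by likeness to Inhbb, while Fst was at 1.58 from Inhbb and 1.95 from Inhba. The median gene was at 2.43 from Inhbb, 2.13 from Inhba and 1.99 from Fst, so Fst and Inhba were little nearer than that.

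The wider pathway was covered by 5 lists of 61 genes, of which 42 were tested. Limma called 2 of the 42 higher and 0 lower in KPCAf/f, where 1.36% and 0.39% of all tested genes were called, and 7 were higher and 0 lower at an unadjusted p under 0.05, as were 8.39% and 6.26% of all tested genes. The lower count was 0 with edgeR, DESeq2 and limma-voom too. The median log2 difference of the 42 was 0.13, against -0.01 over all tested genes. The 2 genes called were Fstl1 and Mmp2.

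Fstl1 encodes a secreted follistatin-like glycoprotein and is grouped here with the antagonists. It had 5404 ± 3723 normalized counts in KPCAf/f and 64.8 ± 59.2 in KPC (SD, n = 5 each). KPCAf/f lines ran from 1479 to 11041 and KPC lines from 4.89 to 134, with no overlap. The gene rose (log2 difference 7.03, SE 0.96, limma adjusted p = 0.00318) and stayed called under all 21 alternatives, with adjusted p up to 0.0143. The 5 tested fibroblast markers given above moved in the same direction, and their part in this result was not tested. Limma called 0 of the other 5 tested processing enzymes and antagonists, of which 1 had an unadjusted p under 0.05. That gene was Bambi, a decoy receptor of the family that is also in the list of response genes, at 72.6 ± 102 in KPCAf/f and 5.72 ± 3.93 in KPC (log2 difference 2.94, limma adjusted p = 0.157). DESeq2 called Bambi (adjusted p = 0.00714), and over 20 alternatives the adjusted p reached 0.276. Bambi had at most 9.47 normalized counts in any KPC line and at least 13.1 in each KPCAf/f line. In both lists it thus entered the test through the group where it was high.

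Mmp2, a gelatinase gene listed among response genes, had 455 ± 749 normalized counts in KPCAf/f (29.2 to 1773) and 3.63 ± 5.03 in KPC (0 to 11.7). Without A1693, which had the highest value, KPCAf/f averaged 126 ± 157 (n = 4). The minimum of 10 was reached in 5 KPCAf/f lines and in 1 KPC line, so the gene entered the test through the group where it was high. The log2 difference was 5.70 (SE 1.16, limma adjusted p = 0.0328), but the call was lost in 10 of 21 alternatives, with adjusted p up to 0.162, among them the fits without A1081, A1620, A2031, A2032, A1925 or A3992. Limma called 0 of the other 16 tested response genes, of which 2 (Bambi and Ltbp1) had an unadjusted p under 0.05 and were called by DESeq2. The median log2 difference of the 17 was 0.04. Ltbp1, which tethers latent TGF-beta, was at 4888 ± 2610 in KPCAf/f and 1378 ± 759 in KPC (log2 difference 1.85, limma adjusted p = 0.0930; DESeq2 0.00563, and up to 0.227 over 21 alternatives). Looked up afterwards, the direct SMAD target Smad7 was at 823 ± 289 in KPCAf/f and 913 ± 271 in KPC (log2 difference -0.19, adjusted p = 0.793), and Skil, another such target, was at 2330 ± 820 in KPCAf/f and 1707 ± 727 in KPC (0.55, adjusted p = 0.561).

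Among the 16 tested SMADs and partners, 0 were called by limma and 1 had an unadjusted p under 0.05. That gene was Tgif2, a SMAD corepressor, at 430 ± 84.9 normalized counts in KPCAf/f and 274 ± 81.1 in KPC (log2 difference 0.68, limma adjusted p = 0.303). Smad2, the signal transducer, followed at 1497 ± 180.2 in KPCAf/f and 1894 ± 334 in KPC (-0.33, adjusted p = 0.416). Foxh1, the DNA-binding partner of SMADs downstream of Nodal, was the 1 gene of this list that was not tested, with 0.733 ± 0.428 in KPCAf/f and 0.608 ± 0.917 in KPC.

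Of 9 other receptors and co-receptors, 5 were tested and 0 were called by limma, with 2 higher at an unadjusted p under 0.05. Tgfbr3, a co-receptor that binds inhibin and TGF-beta, was at 815 ± 885 normalized counts in KPCAf/f (4.09 to 2257) and 16.7 ± 9.41 in KPC (log2 difference 4.24, limma adjusted p = 0.195). It passed without A1809 (log2 difference 5.68, limma adjusted p = 0.00464) and with DESeq2 (7.4e-07), in 2 of 21 alternatives, whose adjusted p reached 0.455. Tgfbr2, the type II receptor of TGF-beta, was at 4036 ± 1150 in KPCAf/f and 2703 ± 590 in KPC (0.56, adjusted p = 0.317). The Cripto gene Tdgf1 and its relative Cfc1 had at most 0.978 normalized counts in any line, and the Nodal receptor gene Acvr1c at most 8.81. Of 8 other ligand genes, 3 were tested and 0 were called or had an unadjusted p under 0.05. Inha, the inhibin alpha chain, was at 24.5 ± 13.8 in KPCAf/f and 12.3 ± 17.6 in KPC (log2 difference 1.83, adjusted p = 0.396), and Gdf11, an activin-like ligand gene, at 219 ± 112 in KPCAf/f and 128 ± 118 in KPC (0.998, adjusted p = 0.492).

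**Figure D5:**
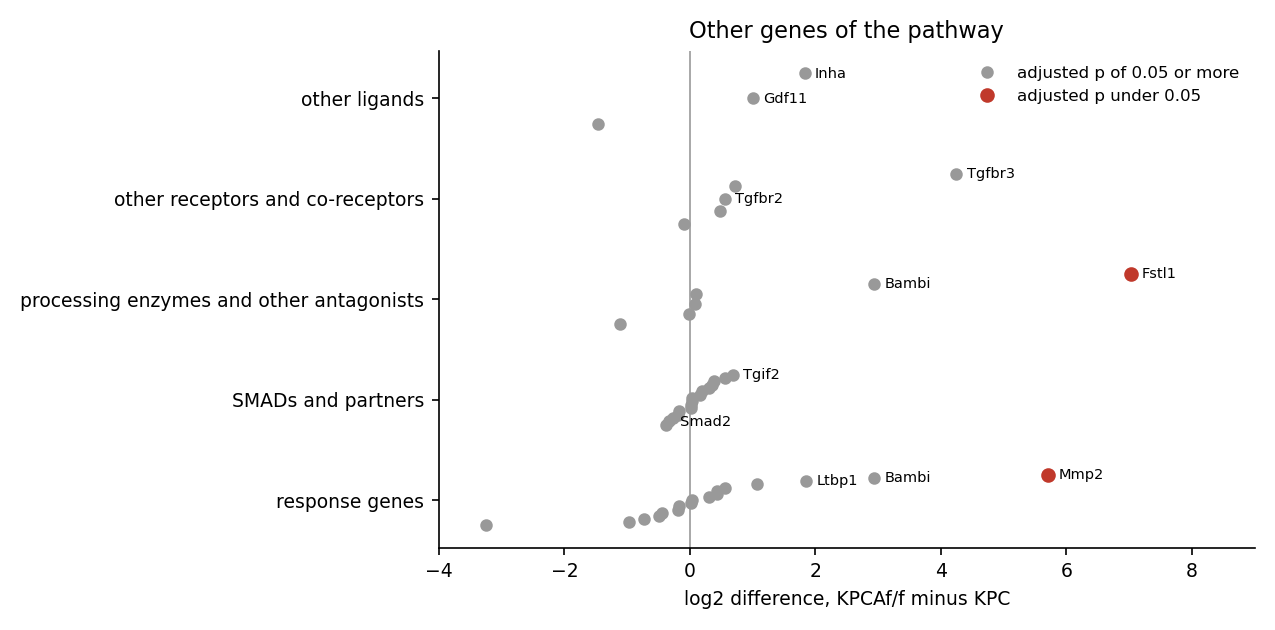
Log2 difference, KPCAf/f minus KPC, of the tested genes of 5 further pathway lists, 1 point per gene and list, with labels on genes named by the rule. Fstl1 at 7.03 and Mmp2 at 5.70 (red) passed the limma threshold, and the SMADs and partners all lie within 0.7 of 0.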

How the data were processed

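Messenger RNA of 10 lines was sequenced, with 1 library per line. The authors deposited 1 table of normalized counts per gene (a signal without negative values). The submitters' processing notes list bcl2fastq 1.8.4, Trimmomatic 0.36, STAR 2.5.2b, Subread 1.5.0p3 with featureCounts, DESeq2 1.14.1 and R 3.3.2. Libraries came from a stranded mRNA kit, per the labels, and neither the strand setting of the counting nor its annotation was stated. Dividing each column by its smallest step gave whole reads for 100% of values (tolerance 0.001), and the size factors recomputed from these reads matched the deposited scaling. Genes with at least 10 normalized counts in at least 5 lines (13089) were tested with limma 3.58.1 (trend) in R 4.3.3 on log2(value + 1), KPCAf/f against KPC, without covariates, at a Benjamini-Hochberg adjusted p under 0.05 over all tested genes. TPM was computed from recovered reads and the merged length of all annotated exons of each gene in GENCODE M21 (GRCm38). Alternatives used limma-voom, DESeq2 1.42.0 and edgeR 4.0.16 on recovered reads, other pseudocounts, filters and scalings, and each line left out. The fits were tested on simulated data. Text names all 10 members, every called gene and the 2 smallest p of each pathway list, and the 5 genes most like Lefty1, Fst, Inhba and Inhbb. Members and lists were chosen with earlier results of these data known. Figures were drawn with matplotlib 3.10.9. Some items are not reported here.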

Additional observations from a re-analysis of the deposited data

Results flagged for a closer look

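Within-genotype values of the 8 genes with reads were screened in 16 groups of 5 lines for a line far from the other 4, with a gap above 0.71 of the group's range. Chance flags about 1 in 20 groups of normally distributed values, a rate that does not hold for groups mostly at 0, as Lefty1 in KPCAf/f and Inhbb in KPC are. Of such values 4 were found, and this number is not set against chance. Lefty1 had 11.5 normalized counts in KPCAf/f line A3992, where the other KPCAf/f lines had 0 to 0.900. Inhbb had 0.947 in KPC line A1081, a single read, and 0 in the other KPC lines. Acvr2a had 160 in KPC line A1620 and 506 to 632 in the other KPC lines. Fst had 382 in KPC line A1081 and 24.7 to 98.3 in the other KPC lines.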

How the results depend on the processing

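Limma called 178 genes higher and 51 lower in KPCAf/f. With a mean of at least 100 normalized counts, which tests fewer genes, these were 109 and 22. They were 521 and 210 with DESeq2, and 76 and 29 with limma-voom, and edgeR called 27 lower. Without 1 line they ran from 122 to 227 and from 24 to 91, the highest lower count without A1809. Members called higher numbered 1 in the reported fit, 2 without a filter (Fst and Inhbb), 0 with edgeR, 2 with DESeq2 (Fst and Inhba), 0 with limma-voom and 0 to 1 without 1 line (0 without A1620, A1625, A2031, A2032, A1925, A2441 or A3992). Without A1620 and A1693 together Inhba was called and Fst was not. Members called lower numbered 1, also without any 1 line, and 0 with the mean filter, which removes Lefty1. Lefty1 and Fst were listed for this contrast, so these member counts say nothing of stability. Pathway genes called higher numbered 2, but 1 with the mean filter, 1 with edgeR, 5 with DESeq2 (Fstl1, Mmp2, Bambi, Ltbp1 and Tgfbr3), 1 with limma-voom, 1 without A1620 and A1693, and 1 to 3 without 1 line. Acvr2a changed direction with the lines used, from -0.43 to 0.067 (log2) without 1 line. The cause of these changes was not tested, beyond the smaller numbers of genes or lines. No paired analysis was possible because the labels give the lines no replicate numbers or pairing. Depth limits Nodal, Lefty2 and Inhbb in KPC, where 0 or 1 reads were counted.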
